A study of Mus musculus with 51 samples.

Results

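Transcripts of 6 mouse genes, Ifi202b, Ifi203, Ifi204, Ifi209, Trim12a and Trim34a, were examined in mammary gland (MG) and blood of BALB/c and C57BL/6 females. The genes had been picked from these same arrays for large differences in level between the strains, so the strain differences given here are descriptions and carry no test. Every probe set annotated to 1 of the 6 symbols alone was kept, without selection on its values. This gave 9 probe sets of 22626 on the array, and 6 genes of the 11807 that had at least 1 probe set of their own. Ifi203, Ifi209 and Trim12a had 2 probe sets each and the other genes 1 each.

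BALB/c and C57BL/6 are inbred strains that the study set against each other as sensitive and resistant to radiation-induced mammary cancer. Virgin females received 4 weekly whole-body X-ray doses from 8 weeks of age, each of 7.5 cGy (LD) or 1.8 Gy (HD), or sham handling, and MG with the lymph node removed was collected 4 hr or 1 month after the last dose. The 43 MG arrays held 3 sham, 4 LD and 4 HD glands per strain at 4 hr. At 1 month they held 3 sham, 2 LD and 4 HD glands of BALB/c and 4 glands of each C57BL/6 group. Blood came from 4 unirradiated 9-week-old females of each strain. All animals were females of a commercial supplier with no engineered allele, and all values are log2 RMA signals, which were comparable within a tissue but not between tissues, since the array medians lay at 6.16 to 6.36 in MG and 4.61 to 4.70 in blood.

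The Ifi200 genes encode PYHIN proteins, which bind nucleic acids through HIN domains and, in most members, carry a pyrin domain that joins inflammasome and innate signalling complexes. Trim genes encode tripartite motif proteins, ubiquitin ligases with a RING finger, B-box and coiled coil, and the cluster that holds Trim12a and Trim34a also carries relatives of the retroviral restriction factor Trim5. Both families are classically induced by interferon, and both sit in arrays of near-identical copies whose number differs between inbred strains. Transcripts of close relatives can therefore hybridise to the same probes.

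In GRCm38.p6 the 4 Ifi200 genes lie on chromosome 1 in the order Ifi209 (chr1:173630859-173647928), Ifi204 (chr1:173747293-173767069), Ifi203 (chr1:173920400-173942866) and Ifi202b (chr1:173962569-173982844). Trim34a (chr7:104244448-104262244) and Trim12a (chr7:104299893-104315558) lie in the same cluster on chromosome 7. The suffix of a probe set says how specific it is by design, _at for 1 transcript, _a_at for several transcripts of 1 gene and _s_at for transcripts of several genes. The Ifi202b probe set is of the last kind, and current RefSeq folds Ifi202a into Ifi202b. The probes' own sequences were not analysed here, so whether a strain variant under a probe lowers its signal was not tested.

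In MG, each strain was hybridised on a plate of its own, so strain and plate cannot be told apart there. The 8 blood arrays shared a plate, with BALB/c in columns 2 to 5 and C57BL/6 in columns 6 to 9. C57BL/6 blood replicate 4 correlated at r = 0.81 to 0.83 with the other blood arrays, which correlated at 0.97 to 0.99 among themselves, and its liver marker list stood 9.39 above that of the median blood array. It was the lowest C57BL/6 blood array at all 9 probe sets, so blood differences of these genes are given with and without it. The liver list also varied among BALB/c blood arrays, from 3.72 to 7.30, and these arrays were kept in the differences given. Among MG arrays, replicate 1 of BALB/c HD 4 hr and replicate 2 of C57BL/6 sham 1 month had skeletal muscle markers 6.67 and 5.70 over those of the median array, and replicate 1 of BALB/c HD 1 month had B cell markers 2.97 over them. The muscle list also reached 7.72 in BALB/c sham 4 hr glands, and the skin and hair list 6.82 in BALB/c LD 4 hr glands. Fits without arrays with transcripts of another tissue left out the MG replicates named above. They also left out BALB/c sham 4 hr replicate 1 and BALB/c LD 4 hr replicates 1 and 2. Replicate 3 of BALB/c HD 1 month, with raised muscle markers, was kept. So was replicate 3 of C57BL/6 HD 1 month, where the B cell list reached 5.92 and the T cell list 6.57. Luminal epithelial and adipocyte markers averaged 10.4 and 10.9 in sham BALB/c glands, against 4.95 and 3.75 in BALB/c blood, as the tissue labels say. In whole tissue, fewer cells of a type and less RNA per cell cannot be told apart.

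The largest MG difference among these genes was that of Ifi202b, which encodes a PYHIN protein with HIN domains and no pyrin domain, known as an antagonist of Aim2 and as a lupus susceptibility gene. In BALB/c glands Ifi202b was a bright transcript, and in C57BL/6 glands it lay at the bottom of the array's range. Sham BALB/c glands read 8.72, 9.92 and 7.50 at 4 hr and 9.06, 9.86 and 8.09 at 1 month. Sham C57BL/6 glands read 4.16, 4.13 and 4.23 at 4 hr and 4.02, 4.49, 4.11 and 4.17 at 1 month. No C57BL/6 gland came near any BALB/c gland, and the highest of 23 C57BL/6 arrays was 4.62 against a lowest of 7.33 among 20 BALB/c arrays.

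The mean difference of Ifi202b between sham glands of the strains, averaged over both times, was 4.67 on the log2 scale, a 25.4-fold ratio of signals (BALB/c 8.86 ± 0.96, SD, n = 6; C57BL/6 4.19 ± 0.15, SD, n = 7). By size it ranked 8th of 22626 probe sets in sham MG. Over the 6 dose and time settings the difference ran from 3.94 to 4.93. In 22 of 23 C57BL/6 glands the value lay under the array's own lower quartile of 4.42 to 4.59, so the C57BL/6 level is a background reading and the ratio and rank depend on where that background lies. Blood showed the same direction, with 5.88, 6.56, 6.35 and 6.87 in BALB/c and 3.43, 3.79, 3.55 and 3.07 in C57BL/6, a difference of 2.96 (2.83 without C57BL/6 replicate 4). In 2 of 4 C57BL/6 blood arrays the value lay under the lower quartile, so the size of this difference also depends on the background.

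The RefSeq promoter windows of 5 of the 6 genes (none for Ifi204), 250 bases before to 50 bases after an annotated start in GRCm38.p6, were searched on both strands for the interferon-stimulated response element (GAAA, any NN, GAAA), found in 3.44% of 32851 windows, and the gamma-activated sequence TTCNNNGAA, found in 8.3%. The windows are those of the C57BL/6J reference, so BALB/c bases were not read. These 4 windows are shown because they hold a match, and are written 5′ to 3′ on the gene's strand with the match in capitals.
Ifi202b: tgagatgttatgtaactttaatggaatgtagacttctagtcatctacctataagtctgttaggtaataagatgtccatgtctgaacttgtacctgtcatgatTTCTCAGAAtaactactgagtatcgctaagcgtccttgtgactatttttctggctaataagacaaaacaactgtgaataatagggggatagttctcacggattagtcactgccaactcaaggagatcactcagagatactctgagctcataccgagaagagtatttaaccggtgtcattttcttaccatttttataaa
Ifi203: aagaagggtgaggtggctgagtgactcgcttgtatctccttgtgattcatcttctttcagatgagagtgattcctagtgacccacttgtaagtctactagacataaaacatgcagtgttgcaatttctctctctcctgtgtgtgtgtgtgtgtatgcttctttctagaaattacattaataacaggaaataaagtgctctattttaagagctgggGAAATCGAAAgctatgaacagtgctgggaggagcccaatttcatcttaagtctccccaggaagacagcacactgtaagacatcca
Trim12a: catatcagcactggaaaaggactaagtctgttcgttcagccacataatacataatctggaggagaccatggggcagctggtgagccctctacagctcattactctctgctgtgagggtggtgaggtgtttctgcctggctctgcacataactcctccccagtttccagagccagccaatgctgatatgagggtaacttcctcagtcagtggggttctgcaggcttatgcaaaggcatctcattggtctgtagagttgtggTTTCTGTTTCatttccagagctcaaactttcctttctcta
Trim34a: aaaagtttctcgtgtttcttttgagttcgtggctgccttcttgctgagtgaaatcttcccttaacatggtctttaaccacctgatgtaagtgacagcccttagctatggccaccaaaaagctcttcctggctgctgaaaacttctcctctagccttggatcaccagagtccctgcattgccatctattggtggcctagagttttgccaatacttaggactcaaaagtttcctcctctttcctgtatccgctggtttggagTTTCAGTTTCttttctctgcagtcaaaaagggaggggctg
The Ifi202b window (chr1:173982795-173983094, minus strand) holds a gamma-activated sequence that begins 148 bases before the start and no response element. The Ifi203 window (chr1:173942443-173942742, minus strand) is that of the later of its 2 annotated starts, and its element begins 35 bases before it. An element begins 10 bases after the start in both the Trim12a window (chr7:104315446-104315745, minus strand) and the Trim34a window (chr7:104244207-104244506, plus strand), and neither motif overlapped the other in any window. No match to these letters was found in the Ifi209 window or in the earlier Ifi203 window. A match is a description of the letters only.

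**Figure D1:**
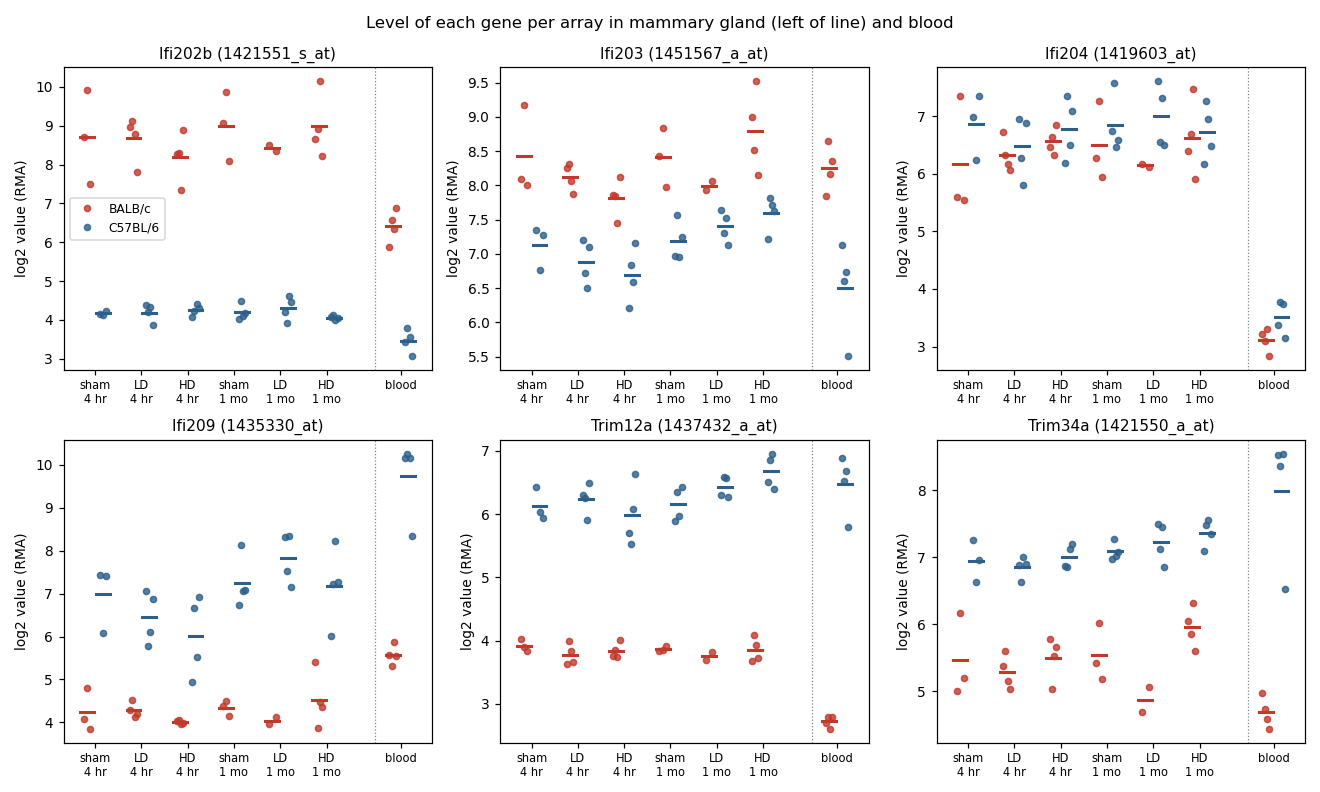
Log2 RMA value of each gene's brightest probe set on every array, by dose and time group in MG (left of the dotted line, 43 arrays) and in unirradiated blood (right, 8 arrays), with BALB/c in red, C57BL/6 in blue and bars at group means; the y axis differs between panels. Ifi202b, Trim12a and Trim34a separate the strains over all MG arrays, while Ifi204 overlaps in 5 of 6 settings.

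Ifi203, a nuclear PYHIN protein with a pyrin domain, was also higher in BALB/c at its brighter probe set, 1451567_a_at, by a smaller margin. Sham glands of BALB/c read 8.10, 9.17 and 8.01 at 4 hr and 8.42, 8.84 and 7.98 at 1 month. Sham C57BL/6 glands read 7.34, 6.76 and 7.27 at 4 hr and 6.97, 7.57, 6.95 and 7.25 at 1 month, all under the lowest BALB/c sham gland. The difference was 1.27 in sham MG, a 2.40-fold ratio (BALB/c 8.42 ± 0.49, SD, n = 6; C57BL/6 7.16 ± 0.28, SD, n = 7), and 0.59 to 1.30 over the 6 settings. Blood gave 7.84, 8.64, 8.16 and 8.35 against 7.13, 6.61, 6.74 and 5.51, a difference of 1.75 that fell to 1.42 without C57BL/6 replicate 4. The strains lay apart within each MG setting but not across settings, since C57BL/6 HD 1 month glands reached 7.82 and BALB/c HD 4 hr glands went down to 7.46.

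The other Ifi203 probe set, 1425008_a_at, showed no such difference. It read 5.28 ± 0.34 (SD, n = 20) over all BALB/c glands and 5.27 ± 0.24 (SD, n = 23) over all C57BL/6 glands, and the strains overlapped in all 6 MG settings with differences of -0.22 to 0.27. In blood its difference was -0.07, and -0.23 without C57BL/6 replicate 4. Its median MG reading lay at the 39th percentile of all probe sets in both strains, against the 74th percentile in BALB/c and the 61st in C57BL/6 for the brighter probe set.

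Ifi204, a PYHIN protein known in DNA sensing and in differentiation of macrophages and bone cells, did not separate the strains in most groups, although it was picked with the others. Sham glands read 5.60, 7.35 and 5.55 at 4 hr and 6.28, 7.26 and 5.94 at 1 month in BALB/c. In C57BL/6 they read 6.99, 6.24 and 7.36 at 4 hr and 6.75, 7.58, 6.47 and 6.59 at 1 month, so the strains overlapped. The sham difference was -0.52 (BALB/c 6.33 ± 0.80, SD, n = 6; C57BL/6 6.85 ± 0.48, SD, n = 7), the mean was lower in BALB/c in all 6 settings by 0.10 to 0.85, and the groups lay apart in 1 of them, LD at 1 month, where BALB/c had 2 arrays. By size its sham difference ranked 1016th of 22626, against 110th for Trim34a and 173rd for Ifi203. In blood its signal was under or near the lower quartile of the arrays, 2.84 to 3.31 in BALB/c and 3.15 to 3.78 in C57BL/6, a difference of -0.39 with overlap. Without C57BL/6 replicate 4 it was -0.51 and the strains lay apart.

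Ifi209, another pyrin-domain member of the family, ran the other way from Ifi202b and Ifi203. At probe set 1435330_at sham BALB/c glands read 4.08, 4.80 and 3.85 at 4 hr and 4.37, 4.49 and 4.15 at 1 month. Sham C57BL/6 glands read 7.43, 6.09 and 7.42 at 4 hr and 6.73, 8.13, 7.07 and 7.09 at 1 month. The sham difference was -2.83, and over the 6 settings it ran from -3.80 to -2.01 with the strains apart in each. In 16 of 20 BALB/c glands the value was under the array's lower quartile, so the size of the MG difference depends on where the background lies. In blood this probe set had the largest difference of the 9. BALB/c read 5.56, 5.31, 5.86 and 5.56 and C57BL/6 read 10.17, 10.25, 10.16 and 8.35, a difference of -4.16 (-4.62 without C57BL/6 replicate 4).

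Its other probe set, 1435331_at, gave a much smaller strain difference, -0.67 in sham MG and -0.40 in blood, with overlap in both. Over the 6 MG settings it ran from -1.66 to -0.19, and the strains lay apart in 3, LD at 4 hr (-0.62) and sham and LD at 1 month (-1.05 and -1.66). In blood, BALB/c read 8.27, 8.97, 8.77 and 8.46 at this probe set, at a median percentile of 92 among all probe sets, although the same RNA lay at a median percentile of 63 at 1435330_at. Without C57BL/6 replicate 4 the blood difference at 1435331_at was -0.87 and the strains lay apart. Within strains, the probe sets deviated together over MG arrays (r = 0.80 in BALB/c and 0.91 in C57BL/6, residuals from group means, n = 20 and 23).

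Trim12a, a relative of Trim5, lay at the bottom of the array's range in BALB/c at its brighter probe set, 1437432_a_at. All 20 BALB/c glands lay between 3.63 and 4.09, under the lower quartile of their arrays, while the 23 C57BL/6 glands lay between 5.52 and 6.95. Sham glands differed by -2.25, set against a background reading (BALB/c 3.89 ± 0.07, SD, n = 6; C57BL/6 6.14 ± 0.24, SD, n = 7), and the range over the 6 settings was -2.82 to -2.15. Blood gave 2.70, 2.79, 2.60 and 2.80 in BALB/c, at a median percentile of 0.63, and 6.88, 6.52, 6.69 and 5.80 in C57BL/6, a difference of -3.75 (-3.97 without C57BL/6 replicate 4). Its other probe set, 1420648_at, was dim in both strains, under the lower quartile in 42 of 43 MG arrays, and differed by -0.12 to 0.17 over the MG settings. At that signal a strain difference was not detectable in MG. In blood it differed by -0.34 with overlap, and by -0.55 without C57BL/6 replicate 4, where the strains lay apart.

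Trim34a, an interferon-inducible Trim ligase with a SPRY domain, was lower in BALB/c on every MG array. Sham BALB/c glands read 5.01, 6.17 and 5.21 at 4 hr and 5.42, 6.02 and 5.19 at 1 month, against 7.26, 6.63 and 6.96 and then 6.98, 7.28, 7.03 and 7.09 in C57BL/6. The sham difference was -1.52 (BALB/c 5.50 ± 0.48, SD, n = 6; C57BL/6 7.03 ± 0.22, SD, n = 7). In blood BALB/c read 4.98, 4.74, 4.58 and 4.44 and C57BL/6 read 8.53, 8.37, 8.54 and 6.54, a difference of -3.31 that grew to -3.80 without replicate 4. Unlike Trim12a, the BALB/c signal was above the lower quartile of every array.

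**Figure D2:**
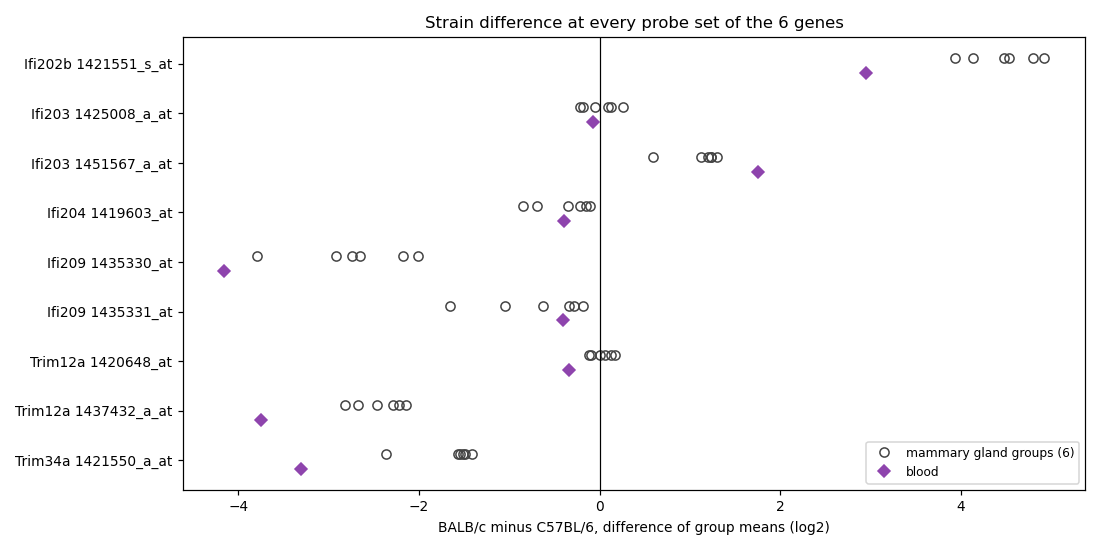
Difference of group means, BALB/c minus C57BL/6 (log2, x axis), at each of the 9 probe sets in the 6 MG dose and time settings (open circles) and in blood (diamonds). Probe sets of the same gene differed: 1451567_a_at of Ifi203 lay at 0.59 to 1.30 in MG and 1425008_a_at at -0.22 to 0.27.

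By these values 5 of the 9 probe sets, those of Ifi202b, Trim34a and the brighter ones of Ifi203, Ifi209 and Trim12a, had strains that did not overlap in blood, against 6.96% of all probe sets, and the same 5 did not overlap in sham MG, against 4.02%. Without C57BL/6 blood replicate 4, 8 of the 9 did not overlap in blood, all but 1425008_a_at of Ifi203, against 15% of all probe sets. Over all 43 MG arrays, 3 of the 9 did not overlap, against 1.05%. Within the 6 MG settings the share of all probe sets apart was 22.7% for sham, 12.4% for LD and 12% for HD at 4 hr, and 16.2% for sham, 27.9% for LD and 11.2% for HD at 1 month. The choice of genes used these contrasts, so the counts only describe it. The strain differences kept their sign in each of the 6 MG settings at all but 2 probe sets, the second ones of Ifi203 and Trim12a. Ordered by mean level, the 6 groups of the higher strain preceded the 6 groups of the other strain for Ifi202b, Ifi203, Ifi209, Trim12a and Trim34a at the brighter probe set. Neighbouring groups within a strain overlapped in range for all of these, except that C57BL/6 HD 1 month lay just under C57BL/6 sham 4 hr for Ifi202b, at background values.

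Genes beside the members on both chromosomes were compared on the same scale. Ifi205, the other Ifi200 gene with a probe set of its own here, lies next to Ifi202b (chr1:174011998-174031755) and was among the brightest transcripts of both strains, with 10.5 ± 0.36 (SD, n = 6) in sham BALB/c and 10.1 ± 0.33 (SD, n = 7) in sham C57BL/6 glands at 1426906_at. Its sham differences were 0.44 and 0.21 at 2 probe sets, and the strains overlapped in all 6 MG settings at both. Fcer1a, an IgE receptor chain, differed by -0.35 in sham MG and overlapped there. Cadm3, a cell adhesion gene that lies between Fcer1a and Ifi209, differed by 0.20 to 0.67 over 3 probe sets, with the strains apart in sham MG at 1 of them. Within the 6 MG settings the strains lay apart in 2 at 1418921_at, 4 at 1418922_at and 0 at 1449272_at of Cadm3.

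In the Trim cluster, Trim30a and Trim30d, which lie beyond Trim12a, were lower in BALB/c in all 6 MG settings at all 4 of their probe sets. Sham differences were -0.98 and -0.43 for Trim30a and -0.68 and -1.05 for Trim30d, and the strains overlapped over all sham MG arrays at each. Within the 6 MG settings the strains lay apart in 3 at 1417961_a_at of Trim30a (-2.14 to -0.79) and in 1 at 1451860_a_at. They lay apart in 4 at each Trim30d probe set, 1438716_at (-1.16 to -0.60) and 1456494_a_at (-2.37 to -0.92). In blood, 3 neighbouring probe sets were apart between the strains, 1438716_at of Trim30d at -1.36 and, in the other direction, 1418077_at of Trim21 at 0.56 and Fcer1a at 0.44 (-1.64, 0.39 and 0.32 without C57BL/6 replicate 4). The Trim30a probe sets differed by -0.38 and 0.31 in blood, with overlap. Without that array, 1417961_a_at of Trim30a (-0.77), 1456494_a_at of Trim30d (-1.13) and 1418921_at of Cadm3 (-0.31) also lay apart. Trim6, which lies before Trim34a, read near the lower quartile in both strains and differed by -0.06. The more distant Trim21 and Trim3 differed by -0.15 to 0.32 and by 0.08 in sham MG, with overlap there. Within the 6 MG settings the strains lay apart in 3 and 1 at the Trim21 probe sets and in 2 at that of Trim3. Of 16 genes listed as Ifi200 neighbours, 5 had a probe set of their own, and the 3 that are not among the 6 genes are given. Of 11 genes listed as Trim neighbours, the 5 with a probe set of their own are given.

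**Figure D3:**
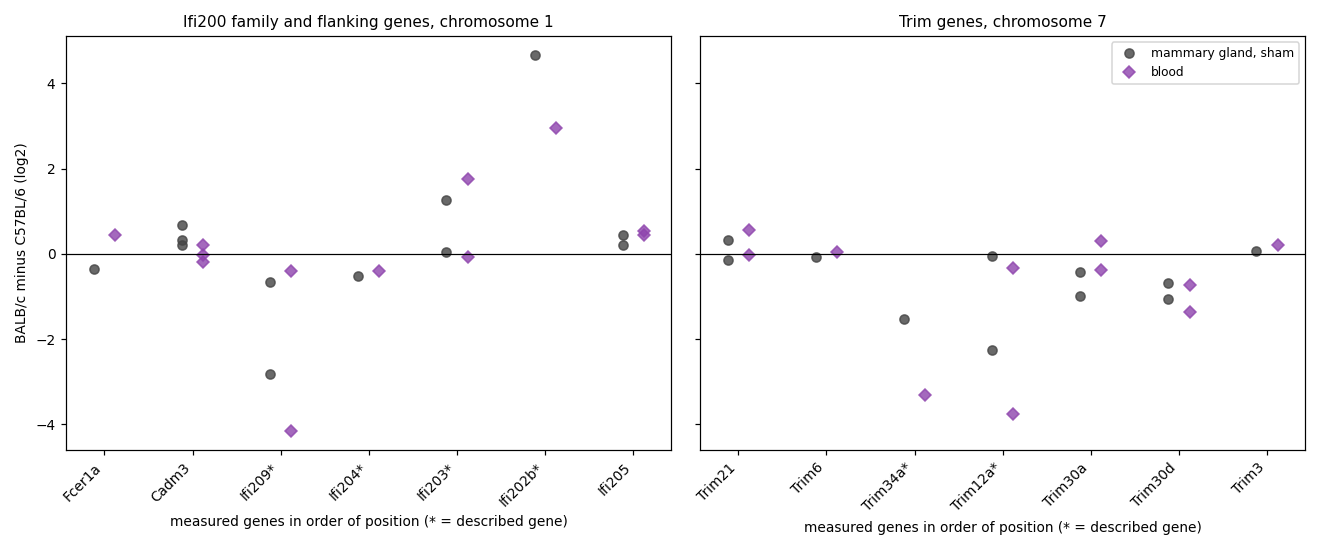
BALB/c minus C57BL/6 difference (log2, y axis) in sham MG (grey circles, mean over both times) and blood (purple diamonds) for each probe set of the measured genes in order of position on chromosomes 1 and 7, asterisks marking the 6 genes. Ifi209 and Ifi202b lie in the same family on opposite sides of 0, at -2.83 and 4.67 in sham MG, with Ifi204 and Ifi205 between -0.52 and 0.44.

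Genes of the wider interferon response were compared between the strains in the same way. Of 50 genes known to be induced by interferon, 40 had a probe set of their own. Their median strain difference was 0.01 in sham MG, 0.05 in blood and -0.09 over all MG arrays, beside 0.01, 0.02 and 0.02 for all probe sets. None of the 40 separated the strains over all MG arrays, against 1.05% of all probe sets, and 1 did in sham MG, Ifi27l2a (0.42), against 4.02%. In blood 7 of the 40, or 17.5%, separated them, against 6.96%. Of these, Oas2 (0.81), Tgtp1 (0.73), Igtp (0.48) and Psmb9 (0.45) were higher in BALB/c, and Oasl2 (-3.00), Ifit3 (-0.83) and Usp18 (-0.47) were lower. The difference of Oasl2, an oligoadenylate synthetase-like protein, was of the size of those of Ifi202b and Trim34a in blood. Without C57BL/6 blood replicate 4 the strains lay apart at 13 of the 40, 6 higher and 7 lower, or 32.5% against 15%. Of 20 measured genes for interferon receptors and signalling, 1 separated them in sham MG, Tbk1 (0.40), 2 in blood, Tbk1 (0.46) and Ifnar1 (0.35), and none over all MG arrays, and their median sham difference was 0.04. Without that array 5 of the 20 lay apart in blood. Both lists were put together with earlier results of these arrays known.

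Within groups, most of these genes deviated together with the interferon response genes of the same gland. For each array the deviation of a gene from its group mean was set against the deviation of the mean of the 40 interferon response genes, which removes strain, dose and time. Pearson's r over 43 arrays was 0.90 for Ifi203, 0.85 for Ifi204, 0.82 for Trim34a and 0.80 for Ifi202b (Spearman's rho 0.88, 0.84, 0.80 and 0.59). It was 0.55 for Ifi209 (rho 0.73) and 0.29 for Trim12a (rho 0.34). With arrays permuted within groups (100000 permutations, two-sided), p was 1e-05 for Ifi203, Ifi204 and Trim34a, the smallest these permutations can give, and 6e-05 for Ifi202b, 0.00031 for Ifi209 and 0.0457 for Trim12a. Benjamini-Hochberg adjustment over 24 relations, 6 genes by 4 lists, gave 4.8e-05 for the first 3 of these and 0.00024, 0.00093 and 0.0844 for the others, so the relation of Trim12a did not pass. For rho the adjusted values were 6e-05 for Ifi203, Ifi204 and Trim34a, 0.003 for Ifi202b, 8e-05 for Ifi209 and 0.0849 for Trim12a.

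The arrays farthest out on the interferon axis were BALB/c HD 1 month replicate 3, a gland with raised muscle markers, and BALB/c sham 4 hr replicate 2. Without them r was 0.87 for Ifi203, 0.81 for Ifi204, 0.78 for Trim34a, 0.70 for Ifi202b, 0.62 for Ifi209 and 0.33 for Trim12a. Within strain, which is also within plate, r was 0.95 in BALB/c and 0.82 in C57BL/6 for Ifi203, 0.91 and 0.83 for Ifi204 and 0.82 and 0.80 for Trim34a. Ifi202b had r = 0.92 in BALB/c, where it was bright, and 0.28 in C57BL/6, where it read at background. Ifi209 had 0.47 in BALB/c, where it was dim, and 0.83 in C57BL/6. Trim12a had 0.25 in BALB/c, where it read at background, and 0.44 in C57BL/6. The difference of these correlations between strains was not tested.

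**Figure D4:**
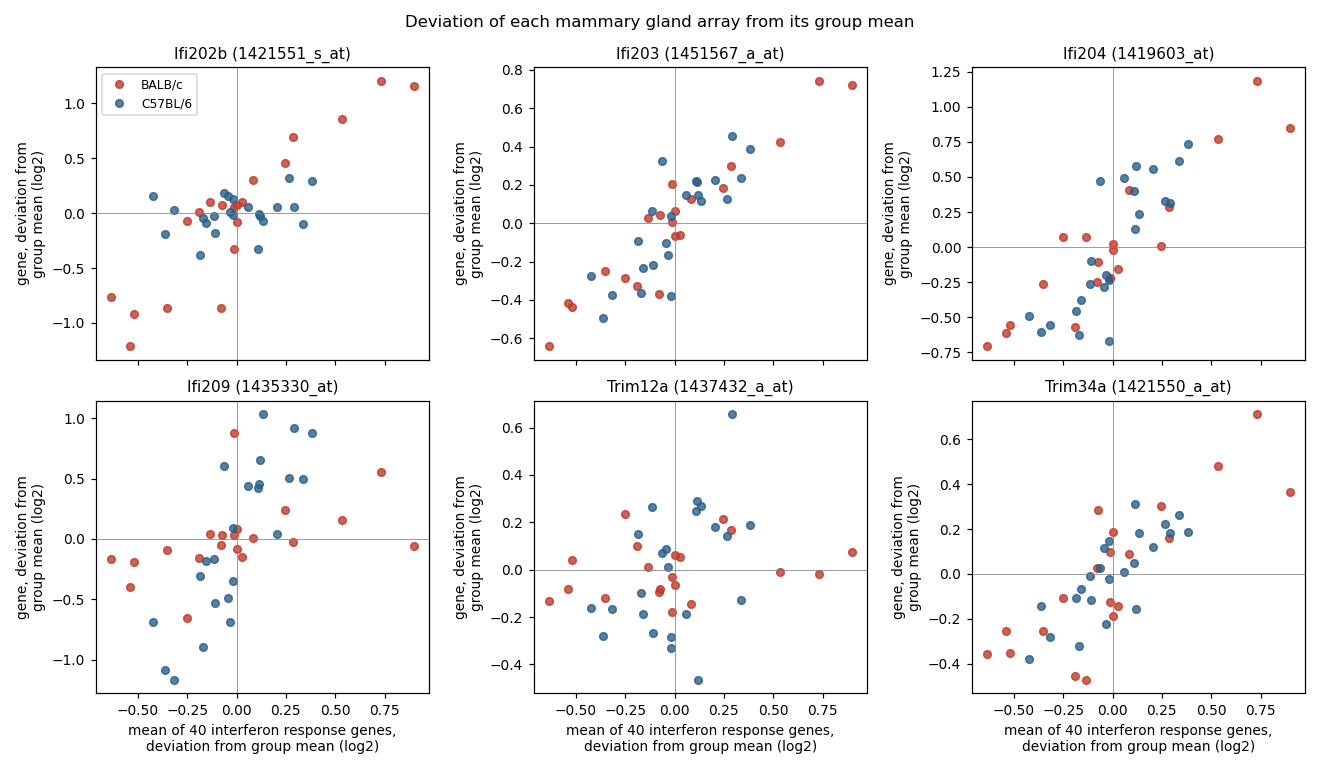
Deviation of each gene's brightest probe set from its group mean (y axis, log2) against the deviation of the mean of 40 interferon response genes (x axis, log2) for 43 MG arrays, BALB/c in red (20) and C57BL/6 in blue (23). Ifi203, Ifi204 and Trim34a rise along the axis in both strains, and Ifi202b does so in BALB/c. Trim12a had r = 0.29 over both strains, 0.25 in BALB/c, where it read at background, and 0.44 in C57BL/6.

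Macrophage markers moved with most of the same genes. Against the mean of all 10 listed macrophage markers, which lay between 8.43 and 10.28 in BALB/c and 8.46 and 9.89 in C57BL/6 glands, r was 0.83 for Ifi203, 0.74 for Ifi204, 0.67 for Ifi209, 0.54 for Ifi202b and 0.48 for Trim34a (rho 0.82, 0.75, 0.70, 0.45 and 0.44; adjusted permutation p for r 4.8e-05, 4.8e-05, 0.00034, 0.0046 and 0.0186). Trim12a had r = 0.31 (rho 0.31, adjusted permutation p 0.163). Leaving out the 2 arrays farthest in macrophage markers moved these values to 0.84, 0.76, 0.66, 0.54, 0.50 and 0.28 in the same order. Within BALB/c and within C57BL/6, r was 0.80 and 0.03 for Ifi202b, 0.46 and 0.82 for Ifi209 and 0.21 and 0.39 for Trim12a. The lower value of each pair came from the strain with readings mostly at background. The part of either list in the other was not tested. B cell markers passed only with Ifi209, at r = 0.44 (rho 0.35, adjusted permutation p 0.0322 for r and 0.0762 for rho), and r was 0.24 without BALB/c HD 1 month replicate 1 and C57BL/6 HD 1 month replicate 3, so that relation rests on those arrays. T cell markers passed with none of the 6 genes, the lowest adjusted permutation p for r being 0.0844, again with Ifi209.

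The spread between untreated animals was wide. In BALB/c sham 4 hr replicate 2 the interferon list stood 0.78 and the macrophage list 0.80 above the median MG array. This gland was the highest of its group for Ifi202b (9.92), Ifi203 (9.17), Ifi204 (7.35), Trim34a (6.17) and both Ifi209 probe sets (4.80 and 7.33), and not for Trim12a.

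The genes with the most similar within-group pattern over the 43 arrays were picked by Pearson's r, as a description. For Ifi202b they were Ifi44l (0.90), Zbp1 (0.82) and Fcgr1 (0.81), and for Ifi203 they were Ifitm3 (0.92), Oas1g (0.91) and Ddx60 (0.91). Ifi204 was nearest to Ms4a6c (0.91), Ifi203 (0.89) and Fcgr1 (0.89), and Ifi209 to Ms4a6b (0.83), Epsti1 (0.79) and Ctsc (0.78). Trim34a was nearest to Irgm1 (0.84), Ifit2 (0.82) and Slfn1 (0.81). Trim12a had no gene above 0.64, its nearest being Psd3 (0.64), Tbc1d22a (0.63) and Slc7a3 (0.62). Between the representative probe sets of the 6 genes, r ran from 0.16 for Ifi202b with Trim12a to 0.89 for Ifi203 with Ifi204.

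The responses to radiation were not used to choose the genes and were tested. By limma, each irradiated group was set against sham glands of the same strain and time, with p-values adjusted over all 22626 probe sets. Of 72 such tests on the 9 probe sets, 1 passed an adjusted p of 0.05. Ifi203 at 1425008_a_at fell 4 hr after HD in BALB/c, where HD glands read 4.64, 4.72, 4.80 and 5.33 and sham glands 5.41, 5.56 and 5.39. No HD gland reached a sham gland. The change was -0.58 (95% interval -0.92 to -0.24, adjusted p = 0.0468), and 5.14% of all probe sets were called in that comparison, or 21% at an unadjusted p under 0.05, which the same 1 member of 9 passed. The brighter Ifi203 probe set read 7.87, 7.85, 7.46 and 8.12 in HD glands and 8.10, 9.17 and 8.01 in sham glands, which overlap, and its change was -0.60 (95% interval -1.23 to 0.03, adjusted p = 0.261).

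That single call lay at the threshold. It was lost in 6 of 7 fits that left out 1 array, with adjusted p from 0.019 to 0.154. The exception was the fit without BALB/c HD 4 hr replicate 4. It was also lost when arrays were centred or quantile normalised (0.0599 and 0.0512) and without the arrays with transcripts of another tissue (0.194). That last fit drops replicate 1 of the HD glands and replicate 1 of the sham glands compared here. Cell type markers were read in the same comparison. The mean of the 10 luminal epithelial markers was 7.82 to 9.28 in HD and 9.88 to 10.45 in sham glands, which lay apart. That of the 10 macrophage markers was 8.43 to 9.56 and 9.42 to 10.28, which overlap. Their part in the result was not tested. The interferon response genes had a median change of -0.26 there, with 1 of 40 higher, Gbp2 (0.48, adjusted p = 0.0191), and none lower. The next by p, Samhd1, Adar and Rsad2, had changes of -0.58, -0.49 and -0.99 and adjusted p of 0.186, 0.236 and 0.325. None of the 20 receptor and signalling genes passed, and the 4 with the smallest p were Irf8 (-1.53, adjusted p = 0.12), Irf1 (-0.27, 0.145), Ifngr1 (0.32, 0.182) and Tyk2 (-0.26, 0.316). Among the neighbours, Trim6 was higher after HD (0.45, adjusted p = 0.0231), at a level near the lower quartile.

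In the remaining 7 comparisons with sham none of the 9 probe sets passed. In BALB/c, the share of all probe sets called was 0% for LD at 4 hr, 0.0177% for HD at 1 month and 0% for LD at 1 month, and the members with unadjusted p under 0.05 were 0, 2 and 1 of 9, where all probe sets gave 9.52%, 10.6% and 6.92%. In C57BL/6, the share called was 0.716% for HD and 0% for LD at 4 hr and 0.915% for HD and 0% for LD at 1 month, and the members with unadjusted p under 0.05 were 1, 0, 1 and 1 of 9, where all probe sets gave 13%, 4.94%, 17.4% and 12.8%. Over the 72 comparisons, 49 intervals lay within -1 to 1 and 67 within -2 to 2. The intervals that reach past -1 or 1 do not bound the change to less than a doubling, up or down. Smaller changes than a doubling could not be told from none at many of the 72. Some narrow intervals came from readings mostly under the lower quartile, which limits what they say about a response. These were Ifi202b in C57BL/6, the brighter Ifi209 and Trim12a probe sets in BALB/c and the dim Trim12a probe set in both strains.

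These 6 values at unadjusted p under 0.05 came from 4 genes. Trim12a at 1437432_a_at after HD in C57BL/6 at 1 month read 6.51, 6.86, 6.95 and 6.40 against sham values of 5.89, 6.34, 5.96 and 6.42, a difference of 0.53 (95% interval 0.11 to 0.94, adjusted p = 0.17). Ifi203 at 1425008_a_at differed by 0.58 in BALB/c HD at 1 month (adjusted p = 0.189), opposite in sign to its value at 4 hr, and by 0.34 in C57BL/6 LD at 1 month (adjusted p = 0.346). Trim34a in BALB/c LD at 1 month read 4.69 and 5.06 against sham values of 5.42, 6.02 and 5.19, a difference of -0.67 on 2 irradiated arrays (adjusted p = 0.719). Ifi209 at 1435331_at in C57BL/6 HD at 4 hr differed by -1.07 (adjusted p = 0.326). The dim Trim12a probe set differed in BALB/c HD at 1 month (0.36, adjusted p = 0.388).

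**Figure D5:**
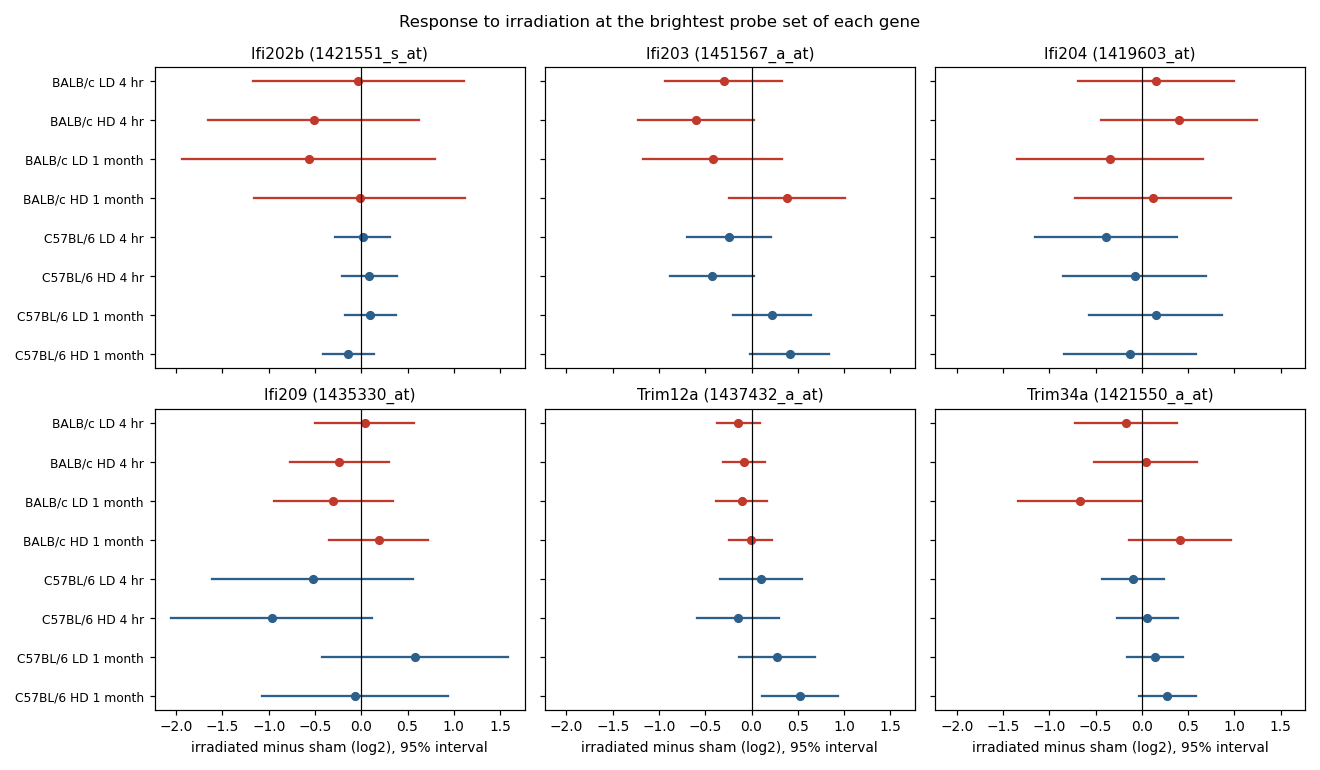
Irradiated minus sham difference (log2, x axis) with its 95% limma interval at the brightest probe set of each gene, for LD and HD at 4 hr and 1 month in BALB/c (red) and C57BL/6 (blue). No adjusted p at these probe sets was under 0.17, and the intervals of Ifi202b are wide in BALB/c and narrow in C57BL/6, where it read at background.

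The median change of the interferon response list was positive at 1 month in 3 of the 4 irradiated groups, 0.32 for BALB/c HD, 0.29 for C57BL/6 HD and 0.27 for C57BL/6 LD, and -0.22 for BALB/c LD, beside medians of 0.00 to 0.02 for all probe sets. After HD in C57BL/6, 3 of 40 rose, Cxcl9 (1.22, adjusted p = 0.0123), Gbp2 (0.51, adjusted p = 0.0423) and Psmb9 (0.44, adjusted p = 0.0434), and none fell. Replicate 3 of that group reached 5.92 in the B cell and 6.57 in the T cell list. Sham glands read 4.37 to 4.42 and 4.63 to 4.77. BALB/c HD at 1 month likewise holds replicate 1, with a B cell list of 7.39. The part of lymphoid transcripts in these changes was not tested. No gene of the list passed in the other 3. At 4 hr the medians were -0.26 and -0.18 after HD and LD in BALB/c and -0.27 and -0.25 in C57BL/6. Groups at 1 time share their sham glands, so these medians are not independent of each other.

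Whether the strains responded differently was tested as the difference of the responses over all 43 MG arrays. None of the 9 probe sets passed for HD or LD at 4 hr or 1 month, and limma called 0% of all probe sets in each of the 4. Unadjusted p was under 0.05 for 1 member in each of the 1-month comparisons and for none at 4 hr, where the share of all probe sets was 6.21% for HD at 4 hr, 4.22% for LD at 4 hr, 5.36% for HD at 1 month and 8.55% for LD at 1 month. These were Trim12a for HD (-0.54, 95% interval -1.03 to -0.04, adjusted p = 0.908) and Trim34a for LD (-0.81, 95% interval -1.49 to -0.13, adjusted p = 0.482). The Trim12a value sets a change of 0.53 in C57BL/6 against -0.01 in BALB/c, where all 20 glands read under the lower quartile. Ifi202b in C57BL/6 (22 of 23 glands) and the brighter Ifi209 probe set in BALB/c (16 of 20) mostly read there too. For these genes, whether the strains responded alike cannot be read from this test, since 1 strain read at background. In the LD comparison at 1 month 8 of the 9 probe sets and 37 of 40 interferon response genes had a negative difference, the latter with a median of -0.48 and none called. BALB/c LD at 1 month rests on 2 arrays. By the looser rule of the study, which takes an unadjusted p with a minimum difference, 1 member passed in each of BALB/c HD at 4 hr (Ifi203 again), BALB/c LD at 1 month (Trim34a) and this LD difference (Trim34a), where 3.71%, 1.1% and 3.85% of all probe sets passed. The study listed genes by this rule for irradiated against sham glands, and it was carried over to the difference of responses here.

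Sham glands at 1 month and at 4 hr differed for none of the 9 probe sets in either strain. The differences ran from -0.52 to 0.33 in BALB/c and from -0.19 to 0.27 in C57BL/6, with lowest adjusted p of 0.787 and 0.586. Of all probe sets 0% were called in BALB/c and 2.84% in C57BL/6, and no member had an unadjusted p under 0.05 in either, where 6.39% and 18% of all probe sets did.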

How the data were processed

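RNA of 43 mammary glands and 8 blood samples was hybridised to Affymetrix HT mouse genome arrays. The deposited values are log2 signals per probe set made by the authors with RMA, per the labels and the file's values. Versions, and whether tissues were normalised together, are not given in the sources used here, and no detection calls were used. Samples were grouped from the labels. Genes were named through the platform annotation and RefSeq symbols (GRCm38.p6), and 18003 of 22626 probe sets had 1 gene. The members and gene lists were chosen with earlier results of these data known. Of several probe sets, the brightest over the MG arrays stands for the gene in plots and correlations. Neighbouring genes are reported at every probe set, lists as counts, and the 4 smallest p where a member was called.

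Group means were fitted per strain (interactions over all MG arrays) with limma 3.58.1 in R 4.3.3, with moderated tests and Benjamini-Hochberg adjustment at 0.05 over all probe sets, after a check on simulated data. Per the study's methods each MG array held RNA of a separate mouse. Descriptions, permutations and figures used Python 3.11.15. Array number limits precision.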

Additional observations from a re-analysis of the deposited data

Results flagged for a closer look

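Of 90 combinations of a probe set and a group of 4 arrays, 6 had an array set apart from the other 3 by more of the group's range than Dixon's 95% limit, a share that chance gives in about 1 of 20 groups. C57BL/6 blood replicate 4 was the array apart in 4 of the 6, at Ifi209 1435330_at (8.35, others 10.16 to 10.25), Ifi209 1435331_at (7.62, others 9.34 to 9.56), Trim12a 1420648_at (3.19, others 4.01 to 4.05) and Trim34a (6.54, others 8.37 to 8.54). It is the blood array with the highest liver marker list, and the part of liver transcripts in these values was not tested. Ifi203 1425008_a_at in C57BL/6 LD 4 hr replicate 1 read 5.42 against 5.12 to 5.14 in the others. Trim12a 1420648_at in BALB/c HD 1 month replicate 2 read 4.87 against 4.10 to 4.16.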

How the results depend on the processing

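In BALB/c HD against sham at 4 hr, the count of 1 member called became 0 with median-centred arrays, with quantile normalisation, with array weights, with plate column as a covariate (26 probe sets called in all), with a replicate block, and without arrays holding another tissue's transcripts. It ranged from 0 to 1 when 1 array was left out. Ifi203 1425008_a_at kept its negative sign in all of these, from -0.50 to -0.73, with adjusted p = 0.387 at the most, under the plate column covariate. With the study's rule, a log2 difference of more than 0.58 either way and an unadjusted p under 0.1 (LD) or 0.01 (otherwise), 1 member passed in BALB/c LD at 1 month and 1 in the strain difference of the LD response at 1 month, where 0 passed otherwise. For the strain difference the rule was carried over here from irradiated against sham glands. The other counts of members stayed at 0 with every alternative run, leaving out 1 array included. Without an array, BALB/c LD at 1 month has 1 left, which is assumed to vary like the other groups. Same-numbered replicates did not deviate together on average (mean r 0.01 in both strains), which cannot exclude a pairing of some arrays. The replicate block gave 0 members called in each comparison. Strain differences moved by less than the replicate SD under each alternative run, in either tissue. The count of the 9 probe sets apart between the strains in blood rose from 5 to 8 without C57BL/6 replicate 4, an alternative chosen after seeing the data. The number of arrays, and readings near the lower quartile, limit what could be seen.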
